A study of Homo sapiens with 12 samples.

Results

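The 59 genes described here are interferon-stimulated genes (ISGs), out of 62696 genes counted in 2 breast cancer lines of the HER2 type, SKBR3 and MDA-MB-453. They were taken by name from a fixed list, which was chosen with earlier results of these data known. The ISGs comprise 4 IFIT genes, 4 OAS genes, 2 MX genes, 3 IFITM genes, 3 GBP genes, 4 PARP genes (DTX3L, the partner of PARP9, counted with them), 4 STAT and IRF factors, 6 RNA sensors, 6 genes of the ISG15 pathway, 3 TRIM genes, 2 SP100 family genes, 6 IFI genes, 2 SAMD9 genes and 10 other effectors. Each line was sequenced as 3 untreated and 3 TWEAK-treated replicates, which makes 4 groups and 12 RNA-seq libraries. The sample labels state that cells were kept in Opti-MEM for 8 h, then received TWEAK at 10 ng/ml, which was replenished after 24 h, and were collected at 48 h. The labels give the same culture text for untreated cells without saying whether medium was changed in the same way. The study's methods call the replicates biological, and both lines are established human lines, so a difference between the lines is a difference between 2 lines and cannot be told apart from any difference in how each line was grown, sequenced or processed.

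Interferons are secreted proteins that cells release when they sense viral nucleic acid. Type I and type III interferons signal through receptor-bound kinases to a complex that includes STAT2 and IRF9, which binds the interferon-stimulated response element (ISRE), whereas interferon gamma acts through gamma-activated sites (GAS). The genes so induced degrade viral RNA, block translation or virus entry, tag proteins with ISG15, or sense RNA and so feed back on interferon production. Several of them, IRF1 above all, are also known targets of NF-κB, the factor that the cytokine TWEAK activates through its receptor Fn14.

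Promoter stretches of 6 ISGs are printed to show how the letters of these elements are arranged in genes with different responses. They are from RefSeq on GRCh38.p14, run 5′ to 3′ on the strand of the gene and carry motif letters in capitals. The ISRE core was searched as GAAA, any 2 bases and GAAA, the GAS core as TTC, any 3 bases and GAA, and the κB element by its usual consensus, all on both strands. IFIT1 (chr10:89392498-89392538, plus strand) holds 2 ISRE cores, both on the reverse strand of the stretch, and IFI6 (chr1:27672272-27672352, minus strand) holds 3. ISG15 (chr1:1013377-1013407, plus strand) holds 2 ISRE cores that share a GAAA. In OAS3 (chr12:112938324-112938473, plus strand) 2 ISRE cores flank a κB match, and in PARP14 (chr3:122680789-122680828, plus strand) a GAS core stands next to an ISRE core. IRF1 (chr5:132490804-132490903, minus strand) holds a GAS core and a κB match without an ISRE core.
IFIT1: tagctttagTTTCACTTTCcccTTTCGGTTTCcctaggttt
IFI6: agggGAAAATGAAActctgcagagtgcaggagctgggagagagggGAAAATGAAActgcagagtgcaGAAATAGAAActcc
ISG15: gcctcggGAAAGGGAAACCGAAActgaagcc
OAS3: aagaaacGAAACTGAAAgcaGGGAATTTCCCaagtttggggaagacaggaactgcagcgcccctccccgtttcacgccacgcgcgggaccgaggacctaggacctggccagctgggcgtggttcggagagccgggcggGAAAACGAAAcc
PARP14: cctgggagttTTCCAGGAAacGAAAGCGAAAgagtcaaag
IRF1: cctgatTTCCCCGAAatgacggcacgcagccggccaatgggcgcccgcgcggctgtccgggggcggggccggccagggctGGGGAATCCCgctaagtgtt

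A window of 250 bases before to 50 bases after the start was given for 48 of the 59 ISGs. An ISRE core stood in the windows of 30 of them (62.5%), against 4.38% of the 27305 genes with a window. A GAS core stood in 14 (29.2%), against 9.38% of all genes, and a κB match in 7 (14.6%), against 7.09%. GAS and ISRE matches share bases in BST2, EPSTI1, IFI27, IFITM1 and MX1. A match is a run of letters and not a shown binding site.

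Total counts lay between 24773003 and 35208304 per library, and levels are given as CPM (counts scaled to a fixed library total) with edgeR's TMM factors over all 12 libraries, listed in the order of replicates 1 to 3. All 7 luminal and HER2 markers checked, from EPCAM and KRT8 to ERBB2, were above 3 counts in each group, with summed levels of 19235 to 23556 CPM in SKBR3 and 3199 to 3419 CPM in MDA-MB-453. Leukocyte markers summed to at most 1.56 CPM and fibroblast and endothelial markers to at most 3.27 CPM in any library. TWEAK replicate 2 stood apart from the other TWEAK replicates in both lines, with a chi-square per degree of freedom of 21.1 and 23.8 against them in SKBR3, where other pairs of replicates gave 1.78 to 5.74, and of 10.2 and 5.31 in MDA-MB-453, where other pairs gave 2.09 to 2.85. Results are therefore also given without it. The strand setting of the counting is not stated, and the exons of some ISGs overlap other genes. On the strand with the larger overlap, this holds for 43.2% of the exonic bases of RIGI, 38.3% of XAF1, 23.9% of IRF9, 23.1% of IFI6, 22.9% of IRF1, 21.1% of IFITM1, 19.4% of SP110, 19.0% of TYMP and 16.3% of IFITM3. On the other strand it also holds for 10.6% of IFITM1 and 8.05% of IRF9. The IFITM genes and the GBP genes are also close copies of each other, so reads could be split among them.

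Before any TWEAK, most ISGs stood far higher in MDA-MB-453 than in SKBR3. Of the 57 ISGs with enough counts across the 12 libraries, 43 were higher in untreated MDA-MB-453, 25 of them by at least 4 on the log2 scale, and 11 were higher in untreated SKBR3 by edgeR's quasi-likelihood test at an adjusted p of at most 0.1. The lines differ widely, and the same test called 84.2% of all 17201 genes, 40.7% lower and 43.5% higher in SKBR3. In the 3 remaining ISGs, IRF1, TYMP and TRIM22, no difference was called. A level of at least 10 CPM was reached by 12 ISGs in untreated SKBR3 and by 35 in untreated MDA-MB-453. In bulk RNA, fewer cells that express a gene and less RNA per cell cannot be told apart.

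Some of the widest gaps were in well-known antiviral effectors. IFIT1, which binds foreign RNA caps, had 0.0359, 0.207 and 0.330 CPM in untreated SKBR3 and 124, 109 and 120 CPM in untreated MDA-MB-453. BST2, or tetherin, which holds budding virus at the cell surface, had 2.41, 2.98 and 3.26 CPM against 470, 420 and 436 CPM. PARP14, a mono-ADP-ribosyltransferase, had 0.503, 1.03 and 1.03 CPM against 116, 116 and 116 CPM, and the groups of all 3 genes were far apart. Where every library of untreated SKBR3 held 3 counts or fewer, the ratio is a lower bound taken against 3 counts in a library. Untreated MDA-MB-453 was at least 237-fold higher in IFI44, 50.1-fold in IFIT3, 46.6-fold in HERC5, 34.5-fold in RSAD2, 31.4-fold in CMPK2 and 14.6-fold in IFI44L. None of the 43 ISGs that were higher in untreated MDA-MB-453 had a mean in TWEAK-treated SKBR3 above that of untreated MDA-MB-453.

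The ISGs with higher levels in untreated SKBR3 were fewer and of other kinds. LGALS3BP, a secreted galectin-binding glycoprotein, had 1131, 1234 and 1337 CPM in SKBR3 against 15.7, 13.2 and 16.1 CPM in MDA-MB-453. IFITM3, which restricts virus entry from endosomes, had 27.7, 31.2 and 36.2 CPM against 0.631, 0.437 and 0.514 CPM. IFI35, a leucine-zipper protein, had 2.51, 2.85 and 2.97 CPM against 0.0371, 0.182 and 0 CPM. No values overlapped in these 3 genes, as was true of 84.3% of all genes. The other 8 were GBP1, GBP3, IFITM1, IFITM2, ISG20, STAT2, TRIM25 and UBA7. Among them the call of GBP1 was lost without MDA-MB-453 untreated replicate 2 (0.78 and 0.106). That of STAT2 was lost without MDA-MB-453 untreated replicate 2 or 3 (0.10 to 0.11 and 0.135 to 0.139) and also with no filter on low counts. That of TRIM25 was lost without SKBR3 untreated replicate 1 or 2 or MDA-MB-453 untreated replicate 1 or 3 (0.11 to 0.14 and 0.109 to 0.201). In such brackets, here and later, the log2 value comes first and the edgeR adjusted p second. TRIM22, not called with all libraries, was called lower in SKBR3 without MDA-MB-453 untreated replicate 3 (-1.05, edgeR adjusted p = 0.0393). Per kilobase of exon, the ISGs with the highest levels were LGALS3BP (361 ± 30.0 CPM per kb, SD, n = 3) and ADAR (51.7 ± 1.0) in untreated SKBR3, and IFI6 (423 ± 30.8), BST2 (402 ± 23.3) and ISG15 (171 ± 11.8) in untreated MDA-MB-453. IFI6 and BST2 differed there by less than their spread. The plot of untreated levels shows the cloud of genes above the line of equality and the few below it.

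**Figure D1:**
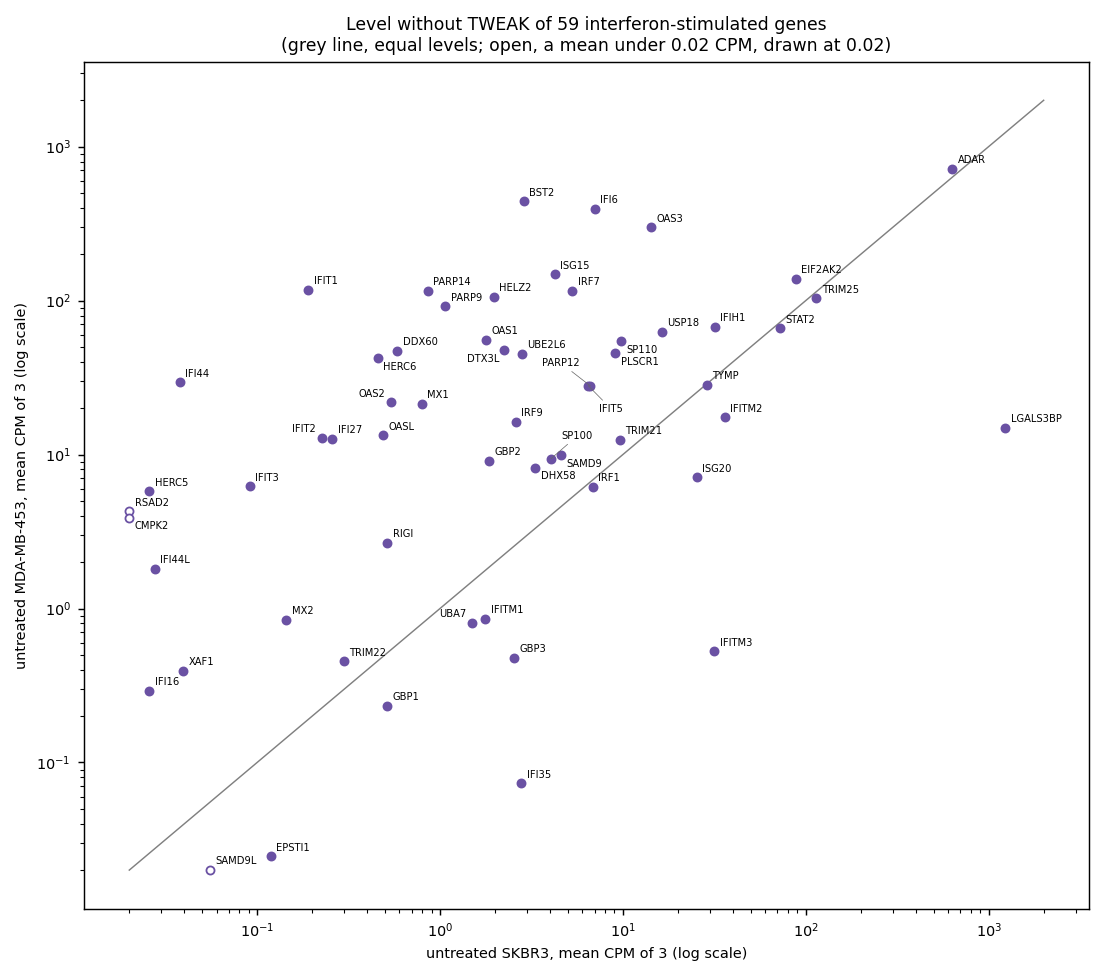
Mean level of each of the 59 ISGs in untreated SKBR3 (x axis, CPM, log scale) against untreated MDA-MB-453 (y axis, CPM, log scale), with 1 point per gene from 3 libraries a line and open points for a mean under 0.02 CPM, drawn at 0.02. Most points lie above the line of equal levels, IFIT1 and IFI44 farthest, while LGALS3BP, IFITM3 and IFI35 lie far below it.

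With TWEAK, ISGs were upregulated in both lines and none was called lower. In SKBR3, 44 of the 59 had enough counts to be tested, and 19 of these were higher and 0 lower. Over all 15661 genes tested, 6.6% were called higher and 3.82% lower. With p unadjusted, 24 ISGs were higher and 0 lower at p under 0.05, which 19.7% of all genes passed in either direction, and DESeq2 also called 0 lower. In MDA-MB-453, 56 were tested, and 40 were higher and 0 lower, where 1.29% of 14929 genes were called higher and 0.208% lower. At p under 0.05 without adjustment, 52 were higher and 0 lower, against 10.5% of all genes in either direction, and DESeq2 again called 0 lower. All 56 log2 fold changes were above 0 in MDA-MB-453, as were 34 of 44 in SKBR3, where 50.8% and 48.3% of all genes were. SKBR3 had a median log2 fold change of 0.40, against -0.01 over all genes tested, and MDA-MB-453 one of 0.48, against 0.00.

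Changes were modest in size. The ISGs called in SKBR3 rose by 1.26-fold to 3.39-fold, with a median of 1.85-fold, and 9 of the 19 rose at least 2-fold. Those called in MDA-MB-453 rose by 1.16-fold to 2.59-fold, with a median of 1.45-fold, and 7 of the 40 rose at least 2-fold. All 3 TWEAK replicates lay above all 3 untreated replicates for each of these 19 and 40 genes, which were called from the same libraries. Among all ISGs tested, called or not, this held for 24 of 44 in SKBR3 and 51 of 56 in MDA-MB-453. The TWEAK replicates lay below all untreated ones for 1 and 0. Over all genes, the groups did not overlap, in either direction, for 26.5% of those tested in SKBR3 and 15.1% in MDA-MB-453. For 1 gene at a time, an exact permutation test of 3 replicates against 3 has 0.1 as its smallest p. Without TWEAK replicate 2, the counts were 20 higher and 1 lower in SKBR3, with 17.4% of all genes called, and 49 higher and 0 lower in MDA-MB-453, with 13.8% called. The gene called lower there was IFITM2 (log2 fold change -0.20, edgeR adjusted p = 0.0774). The calls gained in MDA-MB-453 were IFITM1, IFITM2, IFITM3, STAT2, ADAR, HERC5, TRIM22, RSAD2 and XAF1, with edgeR adjusted p between 0.0005 and 0.0854.

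**Figure D2:**
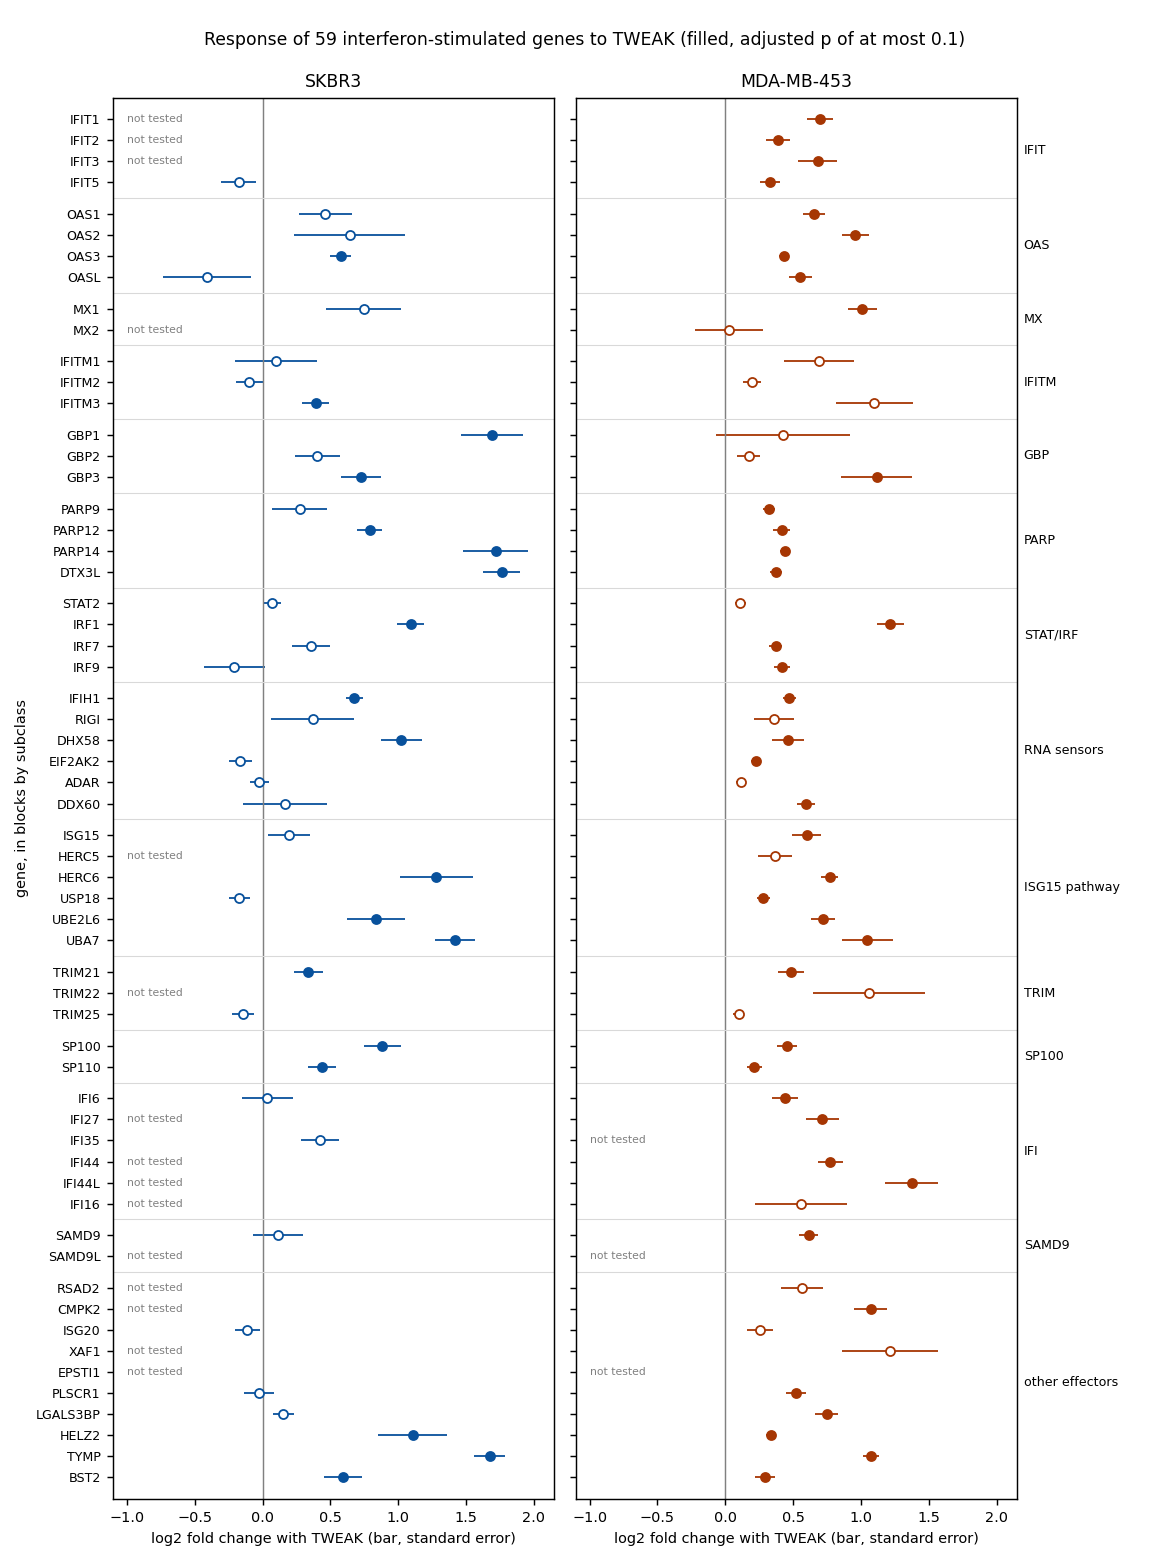
Log2 fold change of each ISG with TWEAK (x axis) in SKBR3 (left) and MDA-MB-453 (right), with its standard error as a bar and the genes (y axis) in blocks by subclass. Filled points passed an adjusted p of 0.1, 19 on the left and 40 on the right, and no filled point lies below 0.

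Individual libraries moved together but not equally. Relative to the untreated mean of each gene, the median ISG stood at 0.29, 0.47 and 0.30 on the log2 scale in the 3 TWEAK replicates of SKBR3, and the untreated replicates stood between -0.13 and 0.11. In MDA-MB-453 the TWEAK replicates stood at 0.63, 0.34 and 0.47 and the untreated ones between -0.07 and 0.05. TWEAK replicate 2 of MDA-MB-453 had the lowest TWEAK value for 41 of the 56 ISGs tested, and replicate 1 the highest for 41. In SKBR3, replicate 2 had the highest TWEAK value for 24 of 44.

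**Figure D3:**
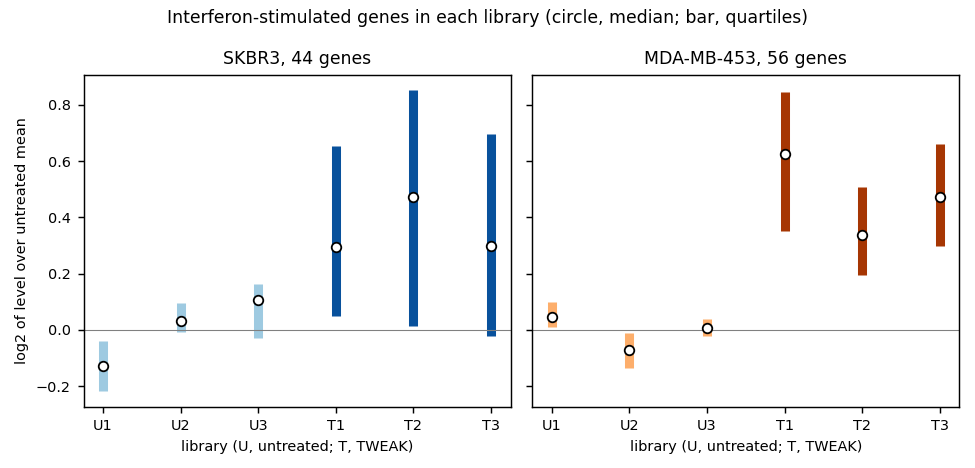
Median (circle) and quartiles (bar) over the ISGs tested in a line of the log2 level relative to the untreated mean (y axis), with a pseudocount of 0.5 CPM, in each library (x axis). Every TWEAK median lies above every untreated median of its line, and TWEAK replicate 2 of MDA-MB-453 has the lowest of the 3 TWEAK medians there.

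Among the transcription factors, IRF1 was called higher in both lines, IRF7 and IRF9 in MDA-MB-453 and STAT2 in neither. IRF1, the founding interferon regulatory factor, had 6.71, 6.29 and 7.58 CPM in untreated and 14, 15.7 and 14.3 CPM in TWEAK-treated SKBR3. In MDA-MB-453 it had 6.20, 5.47 and 6.79 CPM untreated and 16.2, 13.2 and 13.7 CPM with TWEAK. Both pairs of groups were well apart, with log2 fold changes of 1.09 ± 0.10 (edgeR adjusted p = 4.33e-05) and 1.22 ± 0.10 (adjusted p = 8.69e-06). IRF7, the factor that amplifies type I interferon, went from 118, 113 and 115 to 159, 139 and 150 CPM in MDA-MB-453 (0.37 ± 0.05, edgeR adjusted p = 0.000448). IRF9, the DNA-binding subunit of the type I complex, also rose in MDA-MB-453 (0.42 ± 0.06, adjusted p = 0.002), whereas neither passed in SKBR3 (0.36 and -0.21). STAT2, the most abundant of the 4 per kilobase in SKBR3, had log2 fold changes of 0.07 and 0.11 and was called in neither line. The change of IRF7 in SKBR3 minus that in MDA-MB-453 was -0.01 (95% interval -0.30 to 0.29), and in SKBR3 it passed without TWEAK replicate 1 (0.47 and 0.0905) and with all 12 libraries in 1 fit (0.36 and 0.0541). For IRF9 the difference was -0.62 (edgeR adjusted p = 0.182).

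Of the 6 RNA sensors, 2 were called in both lines, 2 in MDA-MB-453 alone and 2 in neither. IFIH1, or MDA5, which recognises long double-stranded RNA, had 32, 32.2 and 31.3 CPM untreated and 50.4, 51.1 and 51.8 CPM with TWEAK in SKBR3, and 69.5, 66.4 and 67.5 against 101, 90 and 91.8 CPM in MDA-MB-453. It rose by 0.68 ± 0.06 and 0.47 ± 0.05 on the log2 scale (edgeR adjusted p = 4.28e-05 and 5.51e-05), and the replicates lay within a narrow range in each group. DHX58, or LGP2, which tunes sensing by MDA5, went from 2.48, 3.89 and 3.59 to 6.63, 6.73 and 6.80 CPM in SKBR3 (1.02 ± 0.15, edgeR adjusted p = 0.00145). In MDA-MB-453 its call was close to the threshold (0.46, adjusted p = 0.0993) and was lost without MDA-MB-453 untreated replicate 2 or 3 or MDA-MB-453 TWEAK replicate 1 or 3 (0.35 to 0.46 and 0.179 to 0.535). That call was also lost with DESeq2's size factors, with at least 10 counts in every library and with all 12 libraries in 1 fit. DDX60, a helicase that aids sensing, rose in MDA-MB-453 from 48.6, 44.2 and 48.8 to 75.5, 63.3 and 74.9 CPM (0.60 ± 0.06, edgeR adjusted p = 0.000103), and EIF2AK2, the kinase PKR that halts translation, rose there by 0.23 ± 0.04 (adjusted p = 0.00636, or 0.316 with all 12 libraries in 1 fit, where it was not called). DDX60 and EIF2AK2 had 0.16 and -0.17 in SKBR3 and were not called. For DDX60 the difference between the lines did not pass (-0.42, edgeR adjusted p = 0.744). RIGI, the sensor of RNA with a 5′ triphosphate, had 0.37 and 0.36, and ADAR, which edits double-stranded RNA, had -0.02 and 0.12. Neither was called in either line, although ADAR had the highest level per kilobase of the sensors in all 4 groups.

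The OAS genes encode enzymes that make 2′-5′ oligoadenylates and so activate RNase L. All 4 rose in MDA-MB-453, and 1 of 4 rose in SKBR3. OAS3, the most abundant of them per kilobase in all groups, went from 13.6, 14.6 and 14.6 to 21.2, 20.1 and 22.6 CPM in SKBR3 and from 290, 304 and 305 to 404, 411 and 399 CPM in MDA-MB-453. OAS3 rose by 0.58 ± 0.08 and 0.43 ± 0.04 on the log2 scale (edgeR adjusted p = 0.000786 and 9.76e-06), and the groups did not overlap in either line. OAS2 went from 23.4, 19.6 and 22.6 to 49.1, 35.3 and 43.2 CPM in MDA-MB-453 (0.96 ± 0.10, edgeR adjusted p = 7.81e-05), OAS1 rose there by 0.66 ± 0.08 and OASL, which lacks the enzyme activity, by 0.55 ± 0.08. In SKBR3 these 3 had log2 fold changes of 0.64, 0.46 and -0.41 at levels of at most 3.0 CPM, and none was called. The difference between the lines was called for none of OAS1, OAS2, OASL and MX1 (edgeR adjusted p = 0.868, 0.906, 0.284 and 0.898). MX1, a GTPase that blocks influenza and other viruses, was called in MDA-MB-453. It had 23.1, 19.9 and 21.2 CPM untreated and 50.1, 34.3 and 44.8 CPM with TWEAK there (1.01 ± 0.11, edgeR adjusted p = 8.97e-05). In SKBR3 it had 0.610, 0.827 and 0.948 against 0.970, 1.72 and 1.29 CPM, groups that did not overlap, but did not pass (0.75 ± 0.28, edgeR adjusted p = 0.161) except when TWEAK replicate 1 was left out (0.93 and 0.0929) or no filter on low counts was applied (0.74 and 0.0863). MX2, its paralog, had 0.03 in MDA-MB-453 and 1 to 8 counts per library in SKBR3, too few to test.

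The 4 IFIT genes lie together at chr10:89283694-89421605 and encode proteins that bind foreign RNA. All 4 rose in MDA-MB-453. IFIT1 went from 124, 109 and 120 to 224, 154 and 194 CPM (0.69 ± 0.10, edgeR adjusted p = 0.00112) and IFIT3 from 6.53, 5.83 and 6.27 to 12.7, 7.68 and 9.68 CPM (0.68 ± 0.14, adjusted p = 0.0321). IFIT2, with 0.39 ± 0.09, and IFIT5, with 0.33 ± 0.08, changed less. The call of IFIT2 was lost without MDA-MB-453 untreated replicate 1, 2 or 3 or MDA-MB-453 TWEAK replicate 3 (0.34 to 0.42 and 0.112 to 0.341), that of IFIT3 lost without MDA-MB-453 untreated replicate 2 or 3 (0.64 to 0.69 and 0.189 to 0.247) and that of IFIT5 lost without MDA-MB-453 untreated replicate 1, 2 or 3 or MDA-MB-453 TWEAK replicate 3 (0.30 to 0.37 and 0.118 to 0.391). In SKBR3, IFIT1 held 1 to 8 counts per library in both groups, IFIT2 4 to 9 and IFIT3 2 to 6, and none was tested. IFIT5, the only one tested there, had 6.82, 6.99 and 5.61 CPM untreated and 5.90, 5.01 and 6.38 CPM with TWEAK, values that overlapped (-0.18 ± 0.13, edgeR adjusted p = 0.507).

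The IFITM genes, which keep viruses from fusing with membranes, gave 1 call in SKBR3 and 0 in MDA-MB-453 by edgeR (3 at an unadjusted p under 0.05 and 0 by DESeq2). Without TWEAK replicate 2, or with the replicate number as a block, all 3 were called in MDA-MB-453. IFITM3 went from 27.7, 31.2 and 36.2 to 41.8, 44.8 and 38.3 CPM in SKBR3 (0.39 ± 0.10, edgeR adjusted p = 0.0399), a call that was lost without SKBR3 untreated replicate 1 or 2 (0.30 to 0.38 and 0.166 to 0.187). In MDA-MB-453 it went from 0.631, 0.437 and 0.514 to 1.58, 0.970 and 0.927 CPM (1.10 ± 0.29, adjusted p = 0.115), a larger fold change at a far lower level that did not pass. In SKBR3, IFITM1 had 0.10 and IFITM2 -0.10, and in MDA-MB-453 they had 0.69 and 0.20. The guanylate-binding proteins, GTPases that attack the vacuoles of intracellular pathogens, gave 2 calls in SKBR3 and 1 in MDA-MB-453. GBP1 went from 0.503, 0.414 and 0.618 to 1.74, 1.60 and 1.67 CPM in SKBR3 (1.69 ± 0.23, edgeR adjusted p = 0.000687), with 10 to 15 and 40 to 43 counts per library. In MDA-MB-453 GBP1 held 3 to 12 counts per library and its groups overlapped (0.42 ± 0.49, edgeR adjusted p = 0.79). GBP3 rose in both lines, by 0.72 ± 0.15 in SKBR3 and 1.12 ± 0.26 in MDA-MB-453 (edgeR adjusted p = 0.0113 and 0.0641), the latter lost without MDA-MB-453 untreated replicate 2 or 3 or MDA-MB-453 TWEAK replicate 1 or 3 (1.0 to 1.22 and 0.128 to 0.392). GBP2 had 0.40 and 0.17 and was called in neither line.

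DTX3L and PARP14 were among the ISGs with the largest log2 fold changes in SKBR3, where PARP14, GBP1 and TYMP differed by less than their standard errors. DTX3L, a ubiquitin ligase that works as a heterodimer with PARP9, went from 2.05, 2.03 and 2.68 to 8.08, 7.05 and 7.84 CPM (1.76 ± 0.14, edgeR adjusted p = 1.24e-05). PARP14 went from 0.503, 1.03 and 1.03 to 2.71, 3.0 and 2.67 CPM (1.72 ± 0.24, adjusted p = 0.000848) and PARP12, which acts against alphaviruses, from 6.43, 6.78 and 6.72 to 11.2, 12.3 and 11.1 CPM (0.79 ± 0.09, adjusted p = 0.000265). These TWEAK groups lay well above their untreated groups, yet for PARP14 and DTX3L they remained far below those of MDA-MB-453. There DTX3L went from 48.1, 46.8 and 47.4 to 64.4, 60.2 and 60.1 CPM (0.38 ± 0.04) and PARP14 from 116, 116 and 116 to 163, 156 and 153 CPM (0.44 ± 0.04), and PARP12 rose by 0.42 ± 0.06. PARP9 and DTX3L start head to head on chromosome 3, at chr3:122527924-122564577 on the minus strand and chr3:122564338-122575203 on the plus strand, and the promoter windows of both held 1 ISRE core. In SKBR3, PARP9 had 1.18, 0.993 and 1.03 CPM untreated and 1.21, 1.24 and 1.46 CPM with TWEAK and was not called (0.27 ± 0.20, edgeR adjusted p = 0.516). The 95% interval of its log2 fold change, -0.17 to 0.72, did not overlap that of DTX3L, 1.46 to 2.07. In MDA-MB-453 the pair changed by similar amounts, with 0.32 ± 0.05 for PARP9 and an interval of 0.23 to 0.42 against 0.28 to 0.47 for DTX3L.

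The ISG15 pathway attaches the ubiquitin-like protein ISG15 to other proteins. Of the genes grouped under it here, UBA7, UBE2L6 and HERC6 rose in both lines, and ISG15 itself rose in MDA-MB-453. UBA7, the activating enzyme, had 1.36, 1.53 and 1.61 CPM untreated and 4.04, 4.21 and 3.84 CPM with TWEAK in SKBR3, and 0.817, 0.765 and 0.844 against 1.65, 1.64 and 1.72 CPM in MDA-MB-453. UBA7 rose by 1.42 ± 0.15 and 1.05 ± 0.19 on the log2 scale (edgeR adjusted p = 0.00011 and 0.00951). UBE2L6, the conjugating enzyme, rose by 0.84 ± 0.21 and 0.72 ± 0.09 (edgeR adjusted p = 0.0365 and 0.000259). In SKBR3 its call was lost without SKBR3 untreated replicate 1 or 2 (0.65 to 0.87 and 0.106 to 0.156). HERC6, a ligase of the same family as HERC5, went from 0.467, 0.496 and 0.412 to 1.01, 1.40 and 0.959 CPM in SKBR3 (1.28 ± 0.27, edgeR adjusted p = 0.0132) and from 44.8, 41.3 and 41.1 to 79.4, 64.7 and 72.8 CPM in MDA-MB-453 (0.77 ± 0.06, adjusted p = 9.96e-06). ISG15 had 4.49, 3.81 and 4.41 CPM untreated and 4.73, 5.85 and 4.05 CPM with TWEAK in SKBR3, values that overlapped (0.20 ± 0.15, edgeR adjusted p = 0.536). In MDA-MB-453 it went from 159, 139 and 147 to 270, 174 and 232 CPM (0.60 ± 0.11, edgeR adjusted p = 0.0104), a call lost without MDA-MB-453 untreated replicate 2 or 3 (0.55 to 0.59 and 0.108 to 0.133). USP18, which removes ISG15 and dampens receptor signalling, went from 63.6, 62.1 and 61.7 to 80.2, 70.8 and 77 CPM in MDA-MB-453 (0.28 ± 0.05, edgeR adjusted p = 0.00544). In SKBR3 its 3 TWEAK values, 14.6, 15 and 14.2 CPM, lay below its untreated values, 16.6, 17 and 15.5 CPM, without passing the test (-0.17 ± 0.08, adjusted p = 0.255). HERC5, the main ISG15 ligase, held 0 to 3 counts per SKBR3 library. In MDA-MB-453 HERC5 had 0.36 and was not called, except with no filter on low counts, with the replicate number as a block or without TWEAK replicate 2.

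Both members of the SP100 family of nuclear body proteins rose in both lines. SP100 went from 3.63, 4.92 and 3.59 to 7.43, 8.01 and 6.97 CPM in SKBR3 (0.88 ± 0.14, edgeR adjusted p = 0.00208) and rose by 0.45 ± 0.07 in MDA-MB-453 (adjusted p = 0.00367). SP110 rose by 0.44 ± 0.10 and 0.21 ± 0.05 (edgeR adjusted p = 0.0237 and 0.087), calls lost without SKBR3 untreated replicate 1 (0.37 and 0.132) and lost without MDA-MB-453 untreated replicate 1, 2 or 3 or MDA-MB-453 TWEAK replicate 1 or 3 (0.17 to 0.23 and 0.170 to 0.477). Of the TRIM ubiquitin ligases, TRIM21, an antibody receptor within cells, rose by 0.34 ± 0.11 and 0.48 ± 0.09 (edgeR adjusted p = 0.0878 and 0.0192), calls lost without SKBR3 untreated replicate 1 or 2 or SKBR3 TWEAK replicate 1 or 3 (0.24 to 0.36 and 0.131 to 0.347) or by DESeq2, and lost without MDA-MB-453 untreated replicate 2 or 3 (0.46 and 0.160 to 0.166). TRIM25, which activates RIG-I, had -0.15 and 0.10 and TRIM22 had 1.06 in MDA-MB-453, and neither was called. TRIM22 passed there without untreated replicate 1 (1.98 and 0.042).

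Of the IFI genes, named only for their induction, 4 of 5 tested were called in MDA-MB-453 and 0 of 2 tested in SKBR3 (1, IFI35, at an unadjusted p under 0.05 and 0 by DESeq2), and only IFI6 was tested in both lines. IFI6, a mitochondrial and ER protein and the ISG with the highest level per kilobase in that line, went from 423, 366 and 398 to 624, 437 and 550 CPM (0.44 ± 0.09, edgeR adjusted p = 0.0328). That call was lost without MDA-MB-453 untreated replicate 2 or 3 or MDA-MB-453 TWEAK replicate 3 (0.39 to 0.44 and 0.154 to 0.299). Among ISGs called in this line, IFI44L had the largest log2 fold change, although it differed from that of IRF1 by less than its standard error. IFI44L went from 2.38, 1.49 and 1.58 to 6.0, 3.80 and 4.42 CPM (1.37 ± 0.20, edgeR adjusted p = 0.00174). Its neighbour IFI44 went from 31.1, 27.5 and 29.7 to 57.5, 41.7 and 51.9 CPM (0.77 ± 0.09, edgeR adjusted p = 0.000209), and IFI27 rose by 0.72 ± 0.12 (adjusted p = 0.00562). In SKBR3, IFI27 held 2 to 9 counts per library, IFI44L 0 to 5, IFI44 0 to 4 and IFI16, a DNA sensor, 0 to 3, and none was tested. IFI6 had 4.85, 7.90 and 8.37 CPM untreated and 6.59, 8.37 and 6.59 CPM with TWEAK in SKBR3, values that overlapped (0.04 ± 0.19, edgeR adjusted p = 0.943). IFI35 in SKBR3 had 0.42 and IFI16 in MDA-MB-453 had 0.56, and neither passed. SAMD9, which restricts poxviruses, rose in MDA-MB-453 (0.61 ± 0.07, edgeR adjusted p = 0.000115) and had 0.11 in SKBR3. SAMD9L had at most 6 counts in any library.

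Among the other effectors, TYMP, or thymidine phosphorylase, had the smallest adjusted p of the ISGs tested in each line. It went from 25.8, 28.8 and 31.6 to 85.5, 108 and 82.6 CPM in SKBR3 and from 30.3, 27.1 and 28.1 to 65.1, 56.3 and 58.8 CPM in MDA-MB-453, with log2 fold changes of 1.68 ± 0.11 and 1.07 ± 0.06 (edgeR adjusted p = 4.05e-06 and 1.33e-07). HELZ2, a helicase and nuclear coactivator, went from 1.08, 2.40 and 2.43 to 4.81, 4.37 and 3.42 CPM in SKBR3 (1.11 ± 0.25, edgeR adjusted p = 0.0218) and rose by 0.34 ± 0.04 in MDA-MB-453 (adjusted p = 0.00014, or 0.171 with all 12 libraries in 1 fit, where it was not called). BST2 rose by 0.59 ± 0.14 and 0.29 ± 0.07 (edgeR adjusted p = 0.028 and 0.0818). Its calls were lost without SKBR3 untreated replicate 1 (0.47 and 0.139) and lost without MDA-MB-453 untreated replicate 2 or 3 or MDA-MB-453 TWEAK replicate 3 (0.26 to 0.30 and 0.266 to 0.504). CMPK2, a mitochondrial nucleotide kinase, went from 4.34, 3.10 and 4.26 to 8.61, 7.31 and 8.59 CPM in MDA-MB-453 (1.07 ± 0.12, edgeR adjusted p = 0.000169), while SKBR3 held 0 counts in each untreated library and 1 to 3 with TWEAK. Its neighbour RSAD2, or viperin, had 5.05, 3.39 and 4.40 against 7.15, 4.96 and 6.81 CPM in MDA-MB-453, values that overlapped (0.57 ± 0.15, edgeR adjusted p = 0.138). RSAD2 passed under 5 alternatives, namely DESeq2, no filter on low counts, the replicate block and leaving out untreated replicate 1 or TWEAK replicate 2 (smallest adjusted p = 7.44e-05), and it held 0 to 4 counts per SKBR3 library. LGALS3BP rose in MDA-MB-453 from 15.7, 13.2 and 16.1 to 27.2, 22.2 and 26 CPM (0.75 ± 0.09, edgeR adjusted p = 0.000169), and PLSCR1, a phospholipid scramblase that hinders virus entry, from 46.5, 42.1 and 47.7 to 74.4, 57.5 and 64 CPM (0.52 ± 0.08, adjusted p = 0.00192). XAF1 had 1.22 in MDA-MB-453, ISG20, an exonuclease, had -0.11 and 0.26, and none was called. EPSTI1 had at most 4 counts in any library. The plot of levels by library shows 12 of these genes.

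**Figure D4:**
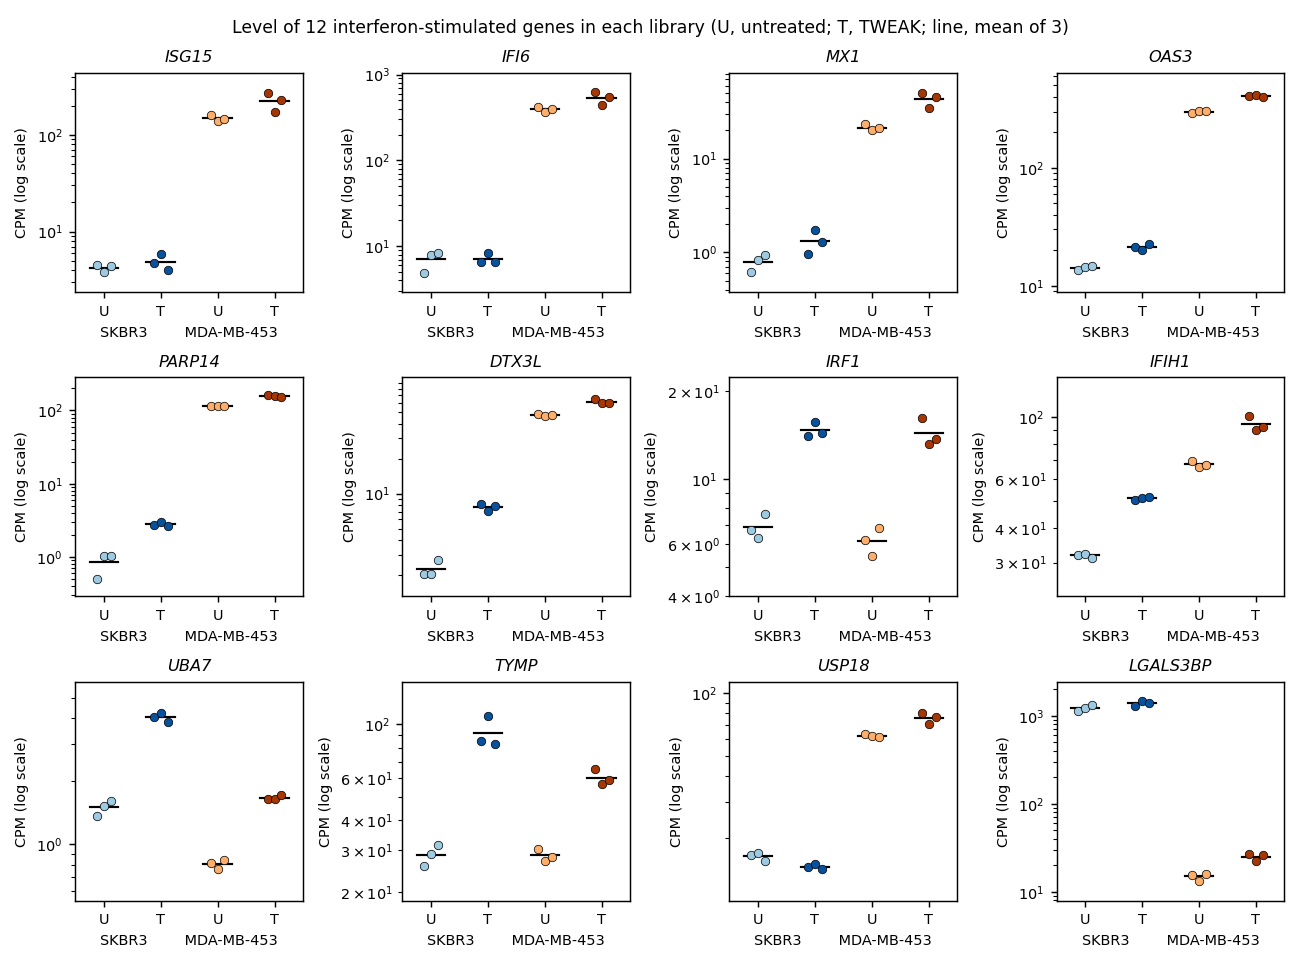
Level (y axis, CPM, log scale) of 12 ISGs in each library, grouped along the x axis as untreated (U) and TWEAK-treated (T) libraries of SKBR3 (blue) and MDA-MB-453 (orange), with the mean of 3 as a line. IRF1 and TYMP start at like levels in both lines, PARP14, ISG15 and IFI6 start far higher in MDA-MB-453, and LGALS3BP starts far higher in SKBR3.

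Across the subclasses, 17 ISGs rose in both lines, 39.5% of the 43 tested in both, where 0.89% of all 13489 genes tested in both lines were called higher in both. The 17 were OAS3, GBP3, PARP12, PARP14, DTX3L, IRF1, IFIH1, DHX58, HERC6, UBE2L6, UBA7, TRIM21, SP100, SP110, HELZ2, TYMP and BST2. Only GBP1 and IFITM3 were called in SKBR3 and not in MDA-MB-453, where IFITM3 was called without TWEAK replicate 2. A further 23 were called in MDA-MB-453 and not in SKBR3, of which 16 had been tested in SKBR3 and 7 had not. The 7 were IFIT1, IFIT2, IFIT3, IFI27, IFI44, IFI44L and CMPK2. Called in neither line were 17, of which SAMD9L and EPSTI1 were tested in neither. A call in 1 line alone does not show that the lines differ, so the difference in response was itself tested, with a line-by-treatment term.

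The TWEAK effect differed between the lines for 8 of the 57 ISGs tested, where 3.37% of all 17201 genes were called, 2.36% with the larger value in SKBR3 and 1.01% with the smaller. The change was larger in SKBR3 for DTX3L, by 1.39 ± 0.13 on the log2 scale (edgeR adjusted p = 4.45e-06), PARP14, by 1.29 ± 0.19 (adjusted p = 0.000609), TYMP, by 0.61 ± 0.14 (adjusted p = 0.0218), and HELZ2, by 0.78 ± 0.22 (adjusted p = 0.0798). All 4 rose in both lines by the fits within each line. The change was smaller in SKBR3, with SKBR3 minus MDA-MB-453 below 0, for LGALS3BP (-0.59 ± 0.12, edgeR adjusted p = 0.0128), PLSCR1 (-0.54 ± 0.15, adjusted p = 0.0692), USP18 (-0.45 ± 0.09, adjusted p = 0.00751) and EIF2AK2 (-0.39 ± 0.10, adjusted p = 0.0465). These 4 were called in MDA-MB-453 and not in SKBR3. The difference of EIF2AK2 was lost without SKBR3 untreated replicate 1 or 2, MDA-MB-453 untreated replicate 1 or 3 or MDA-MB-453 TWEAK replicate 1, 2 or 3 (-0.39 to -0.35 and 0.101 to 0.150). That of PLSCR1 was lost without SKBR3 untreated replicate 2 or 3, SKBR3 TWEAK replicate 1 or 3, MDA-MB-453 untreated replicate 1 or 2 or MDA-MB-453 TWEAK replicate 1 or 3 (-0.56 to -0.44 and 0.113 to 0.240), and that of HELZ2 lost without SKBR3 untreated replicate 1, SKBR3 TWEAK replicate 1, MDA-MB-453 untreated replicate 1, 2 or 3 or MDA-MB-453 TWEAK replicate 1, 2 or 3 (0.46 to 0.80 and 0.119 to 0.226). Without MDA-MB-453 untreated replicate 1 or TWEAK replicate 3, 5 differences passed. Differences of IFIT5, IFITM2, PARP12, IRF9, SP100 and ISG20 passed when 1 library or another was left out at an edgeR adjusted p of at most 0.1. For ISG15 the difference was -0.40 ± 0.24, with a 95% interval of -0.90 to 0.10 (edgeR adjusted p = 0.609), and for IFI6 it was -0.40 ± 0.23, with -0.88 to 0.09 (adjusted p = 0.591). Neither passed, and both intervals include equal changes in the lines, but with no filter on low counts both passed (edgeR adjusted p = 0.0926 and 0.0154). IRF1 had a difference of -0.12 ± 0.15 with an interval of -0.43 to 0.19.

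**Figure D5:**
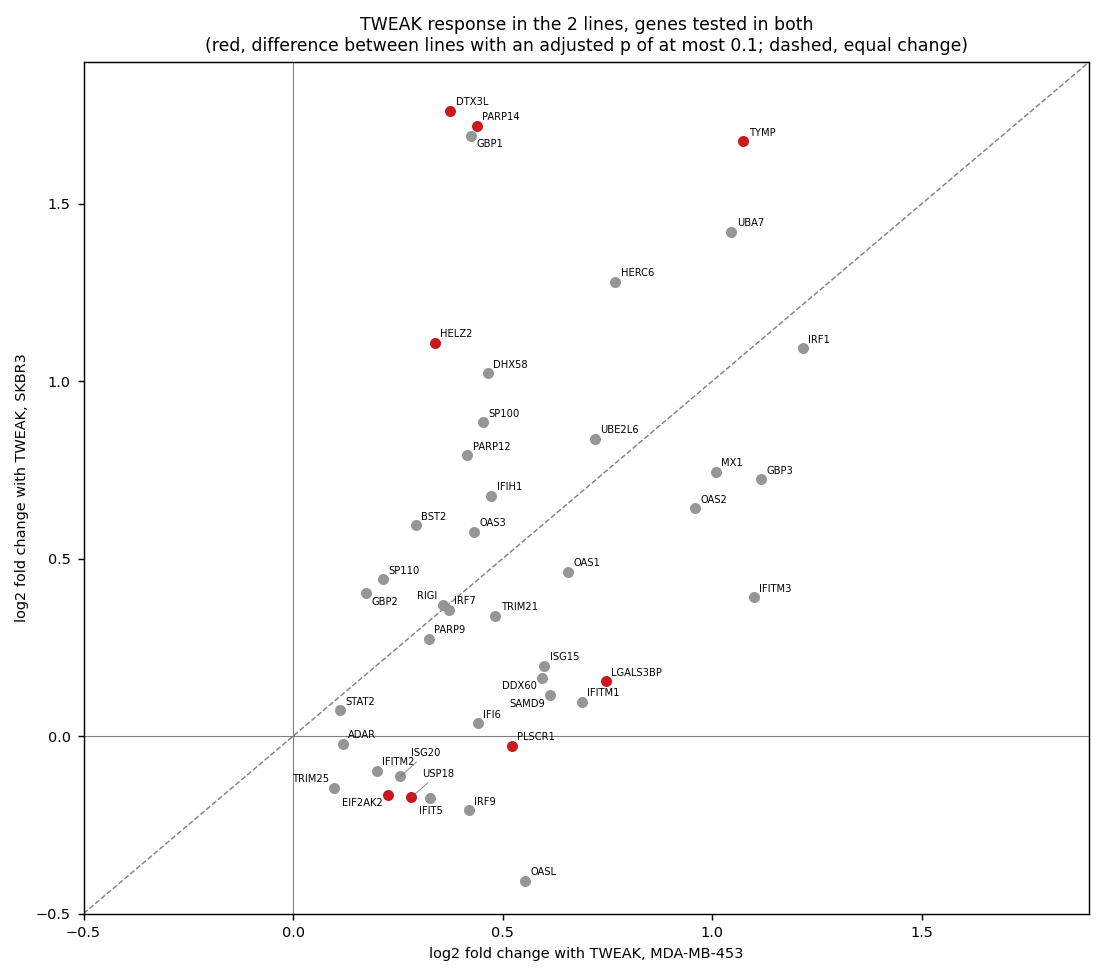
Log2 fold change with TWEAK in MDA-MB-453 (x axis) against SKBR3 (y axis) for the 43 ISGs tested in both lines. Red points passed the test of the difference between lines, with DTX3L, PARP14, TYMP and HELZ2 above the dashed line of equal change and LGALS3BP, PLSCR1, USP18 and EIF2AK2 below it.

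As a description over the 43 ISGs tested in both lines, the log2 fold changes of the lines had a Pearson correlation of 0.40 and a Spearman correlation of 0.41. ISGs with lower untreated levels tended to show larger fold changes, with Pearson correlations of -0.37 over 44 ISGs in SKBR3 and -0.46 over 56 in MDA-MB-453. The untreated libraries enter both values of these last 2 correlations, and genes are not independent replicates. The ISGs include 11 clusters of neighbours within 250 kb that hold 28 of the 59, and in SKBR3 some of these held both called ISGs and ISGs that were tested and not called. DTX3L and PARP14 were called and PARP9 was not, GBP1 and GBP3 were and GBP2 was not, IFITM3 was and IFITM1 and IFITM2 were not, and OAS3 (0.58) was and OAS1 (0.46) and OAS2 (0.64) were not, despite like fold changes. SP100 and SP110 were both called, and the other clusters held no call or members too low to test. Differences between genes were not tested. Of the ISGs with a window, an ISRE core was present in 10 of 17 called in SKBR3 and in 12 of 19 tested and not called there, and in 23 of 33 called in MDA-MB-453 and 6 of 12 not called. A GAS core was present in 5 of 17 called in SKBR3 and in 7 of 19 not called, and in 11 of 33 called in MDA-MB-453 and 1 of 12 not called. A κB match was present in 5 of 17 called in SKBR3 and in 1 of 19 not called, and in 4 of 33 called in MDA-MB-453 and 3 of 12 not called.

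Genes that carry the interferon signal were examined as a second list of 45, of which 31 were tested in each line. In SKBR3, 9 of these were higher and 2 lower, where 10.4% of all genes were called in either direction. In MDA-MB-453, 2 were higher and 0 lower by edgeR, where 1.49% of all genes were called. At an unadjusted p under 0.05, 5 were higher and 1 lower, the receptor chain IL10RB, against 10.5% of all genes in either direction. None of the 8 interferon genes on the list was tested. IFNA1 and IFNK had 0 counts in all libraries, and IFNB1 had 0 in SKBR3 and 1 to 4 in MDA-MB-453. Of the type III interferons, IFNL1 had 0 in SKBR3, 3 to 7 in untreated and 7 to 17 in TWEAK-treated MDA-MB-453. In the same MDA-MB-453 groups, IFNL2 had 0 to 4 and 1 to 5, and IFNL3 had 2 to 6 and 2 to 5. These are raw counts, and MDA-MB-453 TWEAK replicate 3 had the largest library total, 35208304. A count of 0 allows up to 3 counts, so levels of these genes below that limit were not detectable at this depth.

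In SKBR3, 3 of 6 receptor genes and 3 of 5 kinase genes on the list were called. IFNGR1, the ligand-binding chain of the interferon gamma receptor, went from 34.3, 33.8 and 34.1 to 69, 70.7 and 65.9 CPM (1.0 ± 0.06, edgeR adjusted p = 2.46e-06), and its partner chain IFNGR2 rose by 0.70 ± 0.09 (adjusted p = 0.000359). IFNLR1, the receptor of type III interferons, fell from 4.99, 4.84 and 5.77 to 2.42, 2.52 and 2.29 CPM (-1.11 ± 0.13, adjusted p = 0.000331). The type I receptor chains IFNAR1 and IFNAR2 had -0.04 and 0.09 and the shared chain IL10RB -0.24, and none was called. Of the kinases, JAK1 rose by 0.40 ± 0.08, TYK2 by 0.38 ± 0.06 and IKBKE, which activates IRF factors, by 0.66 ± 0.08 (edgeR adjusted p = 0.00789, 0.00268 and 0.000493), while JAK2 and TBK1 had -0.01 and -0.0060 and were not called. SOCS1, an inhibitor of JAK kinases, rose by 0.90 ± 0.11, while SOCS2 fell from 1.94, 2.27 and 1.98 to 1.21, 1.04 and 0.793 CPM (-1.02 ± 0.20, adjusted p = 0.0102). IRF2 rose by 0.47 ± 0.07, and the adaptors MYD88 and STING1 by 0.28 ± 0.05 and 0.52 ± 0.15, the call of STING1 being lost without SKBR3 untreated replicate 1, 2 or 3 (0.41 to 0.57 and 0.129 to 0.283). In MDA-MB-453, MYD88 rose by 0.19 ± 0.04 (edgeR adjusted p = 0.0387), a call lost without MDA-MB-453 untreated replicate 1, 2 or 3 or MDA-MB-453 TWEAK replicate 3 (0.17 to 0.20 and 0.160 to 0.199), and NLRC5, which drives MHC class I genes, by 0.65 ± 0.08 (adjusted p = 0.000259). In SKBR3, NLRC5 had 0.70 and was not called (edgeR adjusted p = 0.142) except with all 12 libraries in 1 fit (0.0491). Its difference between lines was 0.05 and did not pass. The difference between lines passed for IFNGR1 (0.83), IFNGR2 (0.60), JAK1 (0.42), TYK2 (0.29), IKBKE (0.64), IRF2 (0.32), SOCS1 (0.92) and SOCS2 (-0.92), where values above 0 are larger changes in SKBR3. That of TYK2 was lost without SKBR3 untreated replicate 1 or 2, SKBR3 TWEAK replicate 3, MDA-MB-453 untreated replicate 1 or 2 or MDA-MB-453 TWEAK replicate 1 or 3 (0.26 to 0.30 and 0.107 to 0.163), that of IRF2 lost without SKBR3 untreated replicate 1, 2 or 3, SKBR3 TWEAK replicate 1 or 3, MDA-MB-453 untreated replicate 1, 2 or 3 or MDA-MB-453 TWEAK replicate 1 or 3 (0.28 to 0.35 and 0.103 to 0.205) and that of SOCS1 lost without MDA-MB-453 untreated replicate 2 or 3 or MDA-MB-453 TWEAK replicate 1 (0.80 to 0.89 and 0.109 to 0.135).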

How the data were processed

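RNA was extracted with TRIzol and poly-A RNA was sequenced on the HiSeqX, and per the study's methods the authors trimmed reads with Trimmomatic, aligned them to hg38 with STAR and made gene counts with featureCounts. The deposited counts are raw whole numbers per gene, and versions and the strand setting are not given in the sources used here. The labels name a DNA library kit and the methods a directional RNA kit. Of the 62696 gene identifiers, 61918 matched GENCODE 44 with their version and 62672 without it, and 24 did not match.

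In each line, TWEAK was compared with untreated cells by edgeR 4.0.16's quasi-likelihood test (limma 3.58.1, R 4.3.3) with TMM factors, filterByExpr and Benjamini-Hochberg adjustment over all genes tested, and a gene was called at an adjusted p of at most 0.1. The difference between lines and the untreated lines were tested in a fit of all 12 libraries. Standard errors (SE) are the log2 fold change over the root of F, and 95% intervals use the t quantile of the fit. Total counts were 24773003 to 35208304 per library. In simulated data, the fit recovered 93.8% of genes changed by 0.5 on the log2 scale in SKBR3 (15418 genes) and 97.8% in MDA-MB-453 (14747 genes), and 100% of those changed by 1 in both, and unchanged genes made up 11.8% and 13.6% of the calls. The changed genes were drawn only from those above a minimum mean CPM. ISGs such as OAS2 and MX1 in SKBR3 (untreated means of 0.538 and 0.795 CPM) lay below it, so the shares recovered do not cover them.

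Every ISG was accounted for by subclass. Values by library were given for called ISGs with the largest changes at a mean of at least 1 CPM and for ISGs with the highest level per kilobase, together with called pathway genes, and a few ISGs below 1 CPM or not called were added as contrasts after their values had been seen. The ISGs and gene lists were chosen with earlier results of these data known. Alternatives were DESeq2 1.42.0, its size factors, an adjusted p of 0.05, other filters, the replicate number as a block, 1 fit of all libraries and leaving out each library. Promoter windows were read from RefSeq's GRCh38.p14 tables.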

Additional observations from a re-analysis of the deposited data

Results flagged for a closer look

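The TWEAK effect differed between the lines, by the line-by-treatment term of edgeR's quasi-likelihood test, for 8 ISGs and 8 pathway genes, and the values below are log2 fold changes of SKBR3 minus those of MDA-MB-453. Among ISGs, DTX3L had 1.39, PARP14 1.29, HELZ2 0.78 and TYMP 0.61. LGALS3BP had -0.59, PLSCR1 -0.54, USP18 -0.45 and EIF2AK2 -0.39. Among pathway genes, SOCS1 had 0.92, IFNGR1 0.83, IKBKE 0.64, IFNGR2 0.60, JAK1 0.42, IRF2 0.32 and TYK2 0.29, and SOCS2 had -0.92. Before TWEAK, PARP14 stood at a mean of 0.855 CPM in untreated SKBR3 and 116 CPM in untreated MDA-MB-453, and LGALS3BP at 1234 and 15 CPM, whereas TYMP stood at 28.7 and 28.5 CPM. The part of the untreated level in these differences was not tested.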

How the results depend on the processing

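The number of ISGs called higher was 19 in SKBR3 and 18 to 21 under other tools, filters and thresholds, and 14 to 20 when 1 library was left out. In MDA-MB-453 it was 40, then 32 to 47 and 30 to 49. No called fold change reversed under any alternative run, while some that were not called crossed 0, such as IFITM1 in SKBR3 (-0.24 to 0.32) and MX2 in MDA-MB-453. ISGs called lower in SKBR3 numbered 0 to 1 with 1 library left out, the 1 being IFITM2 without TWEAK replicate 2. Differences between the lines numbered 8, and 14 with no filter on low counts, which added IFIT5, IRF9, DHX58, ISG15, IFI6 and SAMD9, and 5 to 11 with 1 library left out. With no filter, the differences of the pathway genes TYK2 and IRF2 were lost. Of the calls made, 14 of 19 in SKBR3, 28 of 40 in MDA-MB-453, 5 of 8 differences and 51 of 54 between untreated lines held under each alternative in which the gene could be tested. With all libraries in 1 fit, the MDA-MB-453 calls of EIF2AK2 (adjusted p = 0.316), HELZ2 (0.171), IFIT2, IFIT5, DHX58, SP110, IFI6 and BST2 were lost. DESeq2 did not call IFI6 (0.266), GBP3 or BST2 there and called RSAD2, and in SKBR3 it did not call TRIM21. The cause was not tested. Untreated differences numbered 38 with at least 10 counts in every library, since fewer genes were tested.

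With the replicate number as a block, 18 ISGs in SKBR3 and 47 in MDA-MB-453 were higher, 8 differed between the lines and 54 between untreated lines. The block called IFITM1, IFITM2, IFITM3, ADAR, HERC5, RSAD2 and XAF1 in MDA-MB-453 as well, and it lost TRIM21 and the pathway gene STING1 in SKBR3. Of the differences between the lines, the block lost HELZ2, TYK2 and IRF2 and gained IRF9. Over all genes the block gave 1211 calls in SKBR3 and 894 in MDA-MB-453, against 1633 and 223. The study states that cell line experiments were repeated on different days, but the labels tie no replicate number to a day. Libraries of the same number had correlations of -0.111 to 0.0812 in SKBR3 and 0.00122 to 0.0507 in MDA-MB-453, so the numbers were not taken as pairs. In SKBR3, 15 ISGs had counts too low to test at total counts of 24842722 to 28647209 per library, as did 3 in MDA-MB-453 at 24773003 to 35208304.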
